A study of Homo sapiens with 12 samples.

Results

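Histone genes were examined in AC16 cells, a human line, under exposure to doxorubicin. The members were the rows of the count table whose gene symbol begins as a clustered histone gene (H1-, H2AC, H2BC, H3C or H4C followed by a number) or as H2AX, H2AZ, H3-3 or MACROH2A. That rule found 110 of 60607 rows. They were 70 replication-dependent genes, 11 replication-independent variants, 25 pseudogenes and 4 antisense or divergent transcripts. A low-count filter left 36 members for testing, of which 22 were replication-dependent, 9 replication-independent, 3 pseudogenes and 2 antisense or divergent transcripts.

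Core histones (H2A, H2B, H3 and H4) form the protein spool of the nucleosome, and the linker histone H1 binds where DNA enters and leaves it. Replication-dependent histone genes lie in clusters, are switched on in S phase to package newly made DNA, and end most of their messages in a stem-loop in place of a poly(A) tail. Replication-independent variants are mostly made throughout the cell cycle from polyadenylated messages, exchange into chromatin outside replication and carry special roles. H2AX is grouped with them here, although its annotated transcript holds a stem-loop. Doxorubicin is an anthracycline that traps topoisomerase II on DNA and evicts histones from chromatin.

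All 4 groups were wild-type AC16 cells, labelled as cardiomyocytes, in DMEM/F12 medium with serum, and each had 3 libraries. Cells were given 0.1 µM doxorubicin for 2, 4 or 6 days, and the control cells had medium alone. The titles give 48, 96 and 112 h and name day 6 for all libraries, so the longest exposure (called 6 days here) is 6 days in the design and 112 h in the titles. It is not stated if each exposure ended at harvest. Nor is it stated if replicates were grown apart, so the p-values rest on library-to-library spread that may be technical alone.

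Libraries held 14835743 to 21226441 counts, of which 5.51% to 8.34% were mitochondrial. Control replicate 2 (8.26%, against 6.01% and 6.75%) and 2-day replicate 3 (5.51%, against 7.62% and 7.74%) stood apart from their groups in that share, and the 4-day libraries held 8.01% to 8.34%. Of 15 cardiomyocyte markers 5 passed the filter, and the defining markers MYL2, MYH6, MYH7 and TNNT2 had 0, 3, 8 and 17 counts over the 12 libraries. Those that passed were TTN, GATA4, ACTN2, PLN and NPPA, with 2839, 1366, 121, 86 and 64 counts. All 10 fibroblast markers passed. In these bulk samples, fewer cells of a kind and less RNA per cell cannot be told apart.

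The filter divided the clustered genes by their annotation as well as by their level. The 22 replication-dependent genes that passed held 12099 counts over the 12 libraries, and the 48 that did not held 833, with 0 to 87 counts a gene and 9 genes at 0. By family, 2 of 6 H1 genes, 4 of 17 H2A genes, 10 of 19 H2B genes, 1 of 13 H3 genes and 5 of 15 H4 genes passed. Those that passed had a median longest transcript of 1390 bases in GENCODE release 29, and 13 of the 22 reached 1000 bases. Those that did not had a median of 411 bases, and 8 of the 48 reached 1000 bases. More than a single exon was annotated for 9 of the 22 and for 4 of the 48. Selection of polyadenylated RNA is not described in the sources used here, and the low counts of this class do not say how much of its message the cells held.

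The stem-loop at the end of replication-dependent messages was found in the annotated transcripts of 35 members, of which 31 were replication-dependent, 3 were pseudogenes and 1 was the variant H2AX. It was present in 16 of the 22 replication-dependent genes that passed the filter and in 15 of the 48 that did not. A stem-loop past the annotated end of a transcript would be missed, so these counts depend on how far each annotation reaches. These sites are shown because the stem-loop is the mark of replication-dependent messages and H2AX was the only variant with one, with the 16-base stem-loop in capitals and coordinates in GRCh38:
H2AC11 (chr6:27133510-27133535, plus strand): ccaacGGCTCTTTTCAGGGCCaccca
H2AC6 (chr6:26124664-26124689, plus strand): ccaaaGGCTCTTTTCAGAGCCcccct
H3C6 (chr6:26225591-26225616, plus strand): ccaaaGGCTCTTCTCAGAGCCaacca
H2BC4 (chr6:26123467-26123492, minus strand): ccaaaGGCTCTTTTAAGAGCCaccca
H2BC5 (chr6:26158582-26158607, plus strand): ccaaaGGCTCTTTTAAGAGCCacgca
H2AX (chr11:119094893-119094918, minus strand): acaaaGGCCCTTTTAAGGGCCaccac
H2BC4 and H2BC5 carried the same 16 letters, as did H2BC7 and H3C8. In H2AC11, H2AC6, H3C6 and H2AX the transcript read continued past the site by 1761, 1114, 1862 and 1044 bases, against 116 bases in H2BC4 and 39 in H2BC5. A single transcript with the site was read for each gene, and other annotated transcripts of a gene can end elsewhere. No stem-loop was found in the annotated transcripts of H1-2, H1-4, H2BC11 or H2BC12. Those of H1-2 and H2BC12 were only 642 and 381 bases long. The search cannot see past an annotated end, so it does not show that these genes lack a stem-loop.

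Promoter windows were read from a RefSeq table (GRCh38.p14, 250 bases before to 50 after each start), which held 77 of the 110 members. The TATA box letters TATAAA, on either strand, were in 66.2% of 68 windows of replication-dependent genes, 26.7% of 15 windows of replication-independent variants and 11.5% of all 35116 windows. For CCAAT the shares were 85.3%, 66.7% and 34.6%, and for the octamer ATTTGCAT they were 39.7%, 6.67% and 1.77%. The octamer was in 15 of 20 H2B windows and 11 of 16 H2A windows of the clusters. Many neighbouring H2A and H2B genes start on opposite strands and share most of a window, so the same octamer can count in both families. H2BC5 and H2BC12 were each entered with overlapping windows, so these windows are not separate observations. The 68 windows came from 64 genes, with H3C4 and H3C6 also entered repeatedly, and the 15 variant windows from 10 genes. Among the variants H3-3A, H1-8 and MACROH2A1 were entered repeatedly. Each had windows with and without the CCAAT letters, and none of their windows held TATAAA. The variant shares for CCAAT and TATAAA thus rest in part on repeated entries, and shares by gene were not computed. AAACACA, known as the H1 box, was in all 6 windows of replication-dependent H1 genes and in 5.64% of all windows. The window of H2AC11 is shown because it overlaps that of its neighbour H2BC11, which starts on the other strand (chr6:27132746-27133045, minus strand). Those of H1-2 and H1-4 are shown because these are the linker genes of the clusters that passed the filter. Capitals mark those 4 motifs, which can overlap:
H2AC11 (chr6:27132793-27133092, plus strand): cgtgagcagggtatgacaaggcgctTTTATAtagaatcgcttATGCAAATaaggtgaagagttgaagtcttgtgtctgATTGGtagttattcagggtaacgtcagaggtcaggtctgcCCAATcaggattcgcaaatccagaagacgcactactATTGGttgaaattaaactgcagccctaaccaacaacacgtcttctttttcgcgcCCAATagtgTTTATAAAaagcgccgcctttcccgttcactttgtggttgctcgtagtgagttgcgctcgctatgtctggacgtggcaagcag
H1-2 (chr6:26056421-26056720, minus strand): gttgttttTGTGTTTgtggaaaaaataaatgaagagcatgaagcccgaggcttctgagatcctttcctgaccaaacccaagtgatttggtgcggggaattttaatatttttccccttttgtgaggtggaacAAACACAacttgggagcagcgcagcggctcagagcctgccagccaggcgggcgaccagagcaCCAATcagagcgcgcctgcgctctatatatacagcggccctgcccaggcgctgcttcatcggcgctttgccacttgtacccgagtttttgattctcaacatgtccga
H1-4 (chr6:26156079-26156378, plus strand): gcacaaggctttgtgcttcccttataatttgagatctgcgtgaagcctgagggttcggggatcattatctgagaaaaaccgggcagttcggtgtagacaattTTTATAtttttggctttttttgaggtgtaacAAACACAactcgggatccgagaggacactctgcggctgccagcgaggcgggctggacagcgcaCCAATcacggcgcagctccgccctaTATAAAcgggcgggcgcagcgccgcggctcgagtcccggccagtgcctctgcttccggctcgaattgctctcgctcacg
The windows of H2AC11 and H2BC11 held the TATA, CCAAT and octamer letters, the window of H1-4 the TATA, CCAAT and H1 box letters, and that of H1-2 the CCAAT and H1 box letters. A match of letters is a description of the window and was not tied to binding of any factor here.

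The summed level of both classes was lower after 4 and 6 days than in the controls, and after 2 days only that of the replication-independent variants was. Summed over the 70 replication-dependent genes, normalised CPM (counts scaled to the TMM-adjusted library size) was 80.5, 77.03 and 76.8 in the controls, 78.4, 80.98 and 76.6 after 2 days, 44.2, 44.8 and 59.8 after 4 days and 48.4, 42.9 and 44.7 after 6 days. Relative to the control mean these were 100.7%, 63.5% and 58.1%. The 2-day total held families that differed, at 76.6% of the control mean for H1, 146.5% for H2A, 97.0% for H2B, 106.5% for H3 and 99.65% for H4. The 2-day libraries overlapped the controls, and every 4-day and 6-day library lay below both. Scaling by library totals alone put the 2-day sum at 92.4%.

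The summed level of the 11 replication-independent variants was already lower after 2 days. It was 2035, 2072 and 1954 normalised CPM in the controls, 1289.5, 1269.6 and 1304 after 2 days, 1524, 1436 and 1369.7 after 4 days and 1294, 1230.2 and 1256 after 6 days. No treated library reached the control range. These were 63.7%, 71.4% and 62.4% of the control mean. As a share of the counts of all coding members, the replication-dependent class made up 5.73%, 6.00% and 5.55% after 2 days, against 3.81%, 3.59% and 3.78% in the controls. It made up 2.82%, 3.02% and 4.18% after 4 days and 3.61%, 3.37% and 3.44% after 6 days. Only the 2-day libraries stood apart from the controls in that share, all 3 above them. These sums are descriptions with no test.

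**Figure D1:**
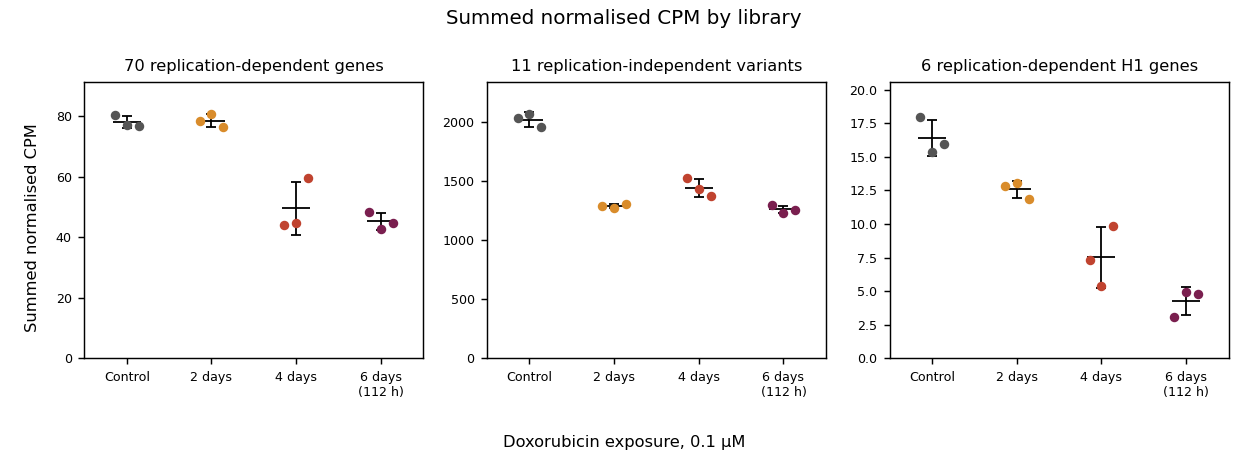
Summed normalised CPM (y axis, linear from 0) of the replication-dependent genes, the replication-independent variants and the replication-dependent H1 genes, by exposure (x axis). Points are libraries, the bar is the mean and the whiskers are the SD (n = 3). The replication-dependent sum overlaps the control after 2 days and lies at 63.5% and 58.1% of it after 4 and 6 days, while the variant sum is at 63.7%, 71.4% and 62.4% of it after 2, 4 and 6 days.

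The question of each comparison with the control was which members an exposure of that length moved, and all 3 comparisons share the same 3 controls. After 2 days, 47.2% of all 17320 genes tested had an adjusted p under 0.05 (23.8% higher, 23.4% lower). Of the 22 replication-dependent genes 5 rose and 5 fell, a share close to that background, with a median log2 fold change of -0.16 against -0.013 over all genes. The groups did not overlap for 52.2% of all genes, and for 13 of the 22, with 5 above and 8 below the controls. Of the 9 replication-independent variants 1 rose and 7 fell, with a median of -0.60. The median of all genes moved to -0.136 when libraries were scaled by their totals alone, so 2-day directions are relative to the scaling.

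After 4 days 36.5% of all genes changed (18.8% higher, 17.7% lower). None of the 22 replication-dependent genes rose and 10 fell, with a median of -0.54 against -0.0028 over all genes, and 1 of the 9 variants rose and 6 fell, with a median of -0.32. The groups did not overlap for 44.6% of all genes, and 12 of the 22 lay below the controls. After 6 days 43.7% of all genes changed (22% higher, 21.7% lower). None of the 22 rose and 11 fell, with a median of -0.86 against -0.0061, and 1 of the 9 variants rose and 7 fell, with a median of -0.45. The groups did not overlap for 50.9% of all genes, and again 12 of the 22 lay below the controls. The unadjusted p was under 0.05 for 13 of the 22 after 4 days and 11 after 6 days, and DESeq2 called 9 and 10.

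The filter limits what those counts carry. H2BC7, H2BC9, H4C3 and H4C5 reached its level of 0.574 CPM in 3 libraries only because of the controls, so they could pass only by being higher there. Without these 4, of the 18 replication-dependent genes left 5 rose and 3 fell after 2 days, none rose and 8 fell after 4 days, and none rose and 8 fell after 6 days, with medians of 0.20, -0.47 and -0.69. Of the 18, 5 lay above and 5 below the controls after 2 days, and 9 below them after 4 days and 9 after 6 days. The 18 include H2AC8, which reached the filter level only in 4-day and 6-day libraries. The other 48 clustered genes were not tested. For any difference among the 4 groups, 63.4% of all genes, 15 of the 22 and 8 of the 9 were called. Those 22 include the genes that passed only through the controls.

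**Figure D2:**
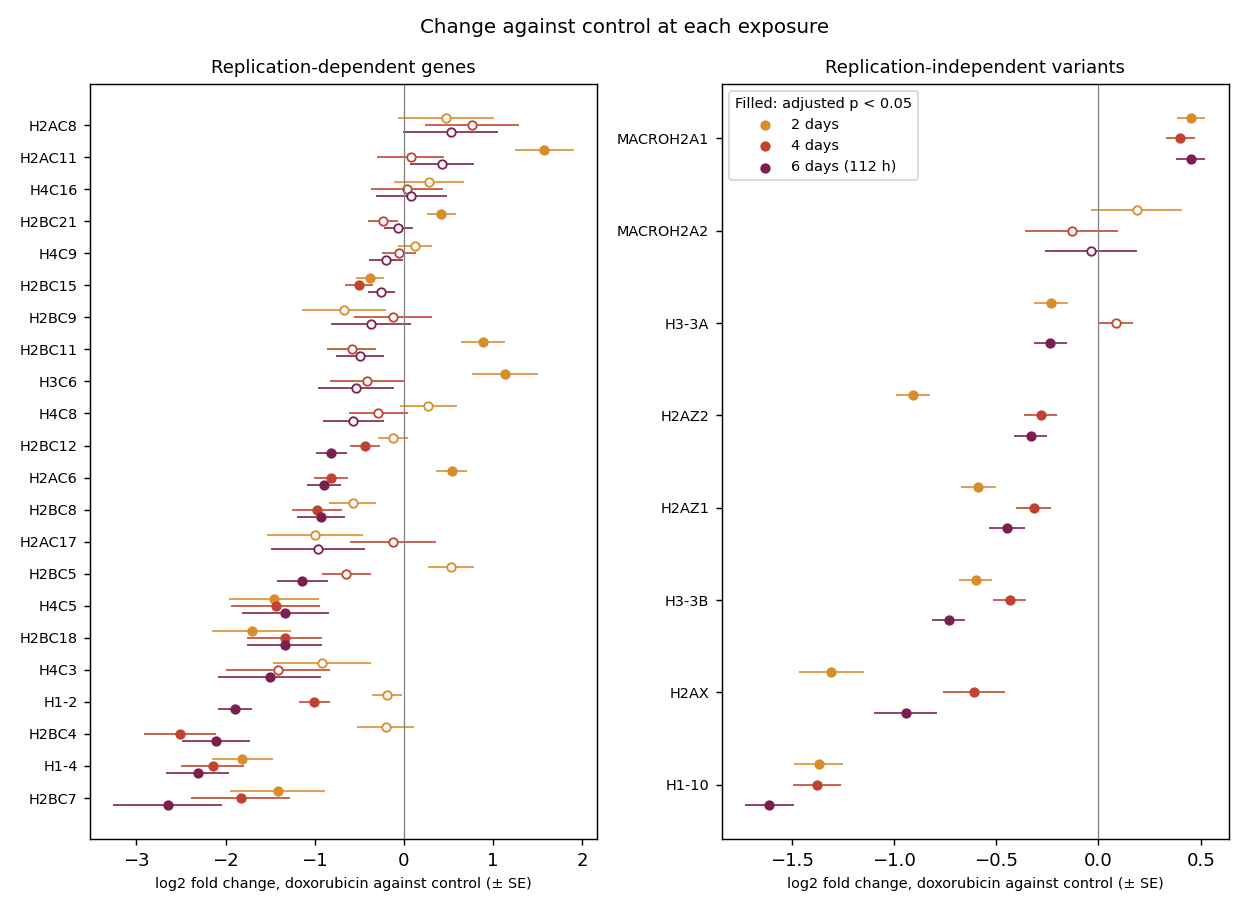
Log2 fold change against the control (x axis, ± SE) of the 22 replication-dependent genes and 8 of the 9 replication-independent variants that passed the filter, after 2, 4 and 6 days. Filled points had an adjusted p under 0.05. H2BC7, H2BC9, H4C3 and H4C5 passed the filter only through the controls, and H2AC8 only through 4-day and 6-day libraries. Nothing is drawn from the position or fill of the points of these genes. After 2 days 5 replication-dependent genes lie above 0 as filled points, and none does after 4 or 6 days, while H1-10, H2AX, H2AZ1, H2AZ2 and H3-3B lie below 0 throughout.

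H1-10 encodes the linker variant H1.10 (chromosome 3, 129314771 to 129316277 in GENCODE release 29), and it fell at every exposure. Its levels were 141, 171 and 136 normalised CPM in the controls, 53.9, 68.5 and 51.8 after 2 days, 58.7, 59.9 and 54.2 after 4 days and 42.95, 45.2 and 58.7 after 6 days. No treated library reached the control range, and the 3 exposures overlapped each other. Against the controls the log2 fold changes were -1.37 ± 0.12, -1.38 ± 0.12 and -1.61 ± 0.12 (adjusted p = 3.06e-09, 4.71e-09 and 2.86e-10). The gene shares 345 bases with H1-10-AS1 on the opposite strand, and without a stated strand setting their reads cannot be told apart. H1-10-AS1 itself averaged 2.71 ± 0.637 normalised CPM in the controls, 0.886 ± 0.316 after 2 days, 2.24 ± 0.224 after 4 days and 1.59 ± 0.278 after 6 days (SD, n = 3). It fell after 2 and 6 days, with log2 fold changes of -1.59 ± 0.30 and -0.78 ± 0.27, and had -0.27 ± 0.26 after 4 days (adjusted p = 9.14e-05, 0.021 and 0.447).

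H2AX encodes the variant that is phosphorylated around DNA double-strand breaks (chromosome 11, 119093854 to 119095467), and its stem-loop is shown above. It was at 29.5, 39.5 and 28.9 normalised CPM in the controls, 13.3, 14.8 and 11.5 after 2 days, 19, 18.4 and 26.7 after 4 days and 15.4, 14.99 and 20.3 after 6 days. The 2-day libraries were the lowest, and none of the 9 treated libraries reached the control range. Fold changes on the log2 scale were -1.31 ± 0.16, -0.61 ± 0.15 and -0.94 ± 0.15 (adjusted p = 6.79e-07, 0.00325 and 3.72e-05). The 4-day level was above the 2-day level by 0.70 ± 0.16 (adjusted p = 0.00178).

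H2AZ1 and H2AZ2 encode the paralogs of H2A.Z, a variant placed beside the starts of genes. H2AZ1 (chromosome 4, 99948086 to 99950388) was at 239, 254 and 229.9 normalised CPM in the controls, 170.5, 139 and 171 after 2 days, 205, 179 and 196 after 4 days and 190.2, 175 and 165 after 6 days. Its log2 fold changes were -0.59 ± 0.087, -0.32 ± 0.086 and -0.45 ± 0.087 (adjusted p = 4.59e-06, 0.00547 and 0.000168). Treated and control libraries did not overlap at any exposure.

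H2AZ2 (chromosome 7, 44826791 to 44848083) had 300.5, 257 and 291 normalised CPM in the controls, 149.8, 140.1 and 163 after 2 days, 240.3, 244 and 213 after 4 days and 232, 223 and 218 after 6 days. The 2-day libraries were the lowest, and all treated libraries were below the controls. On the log2 scale it differed from the controls by -0.91 ± 0.082, -0.28 ± 0.081 and -0.33 ± 0.081 (adjusted p = 1.83e-09, 0.00803 and 0.00177). The 4-day call ended without 4-day replicate 3 (-0.22, adjusted p = 0.0635). Both the 4-day and the 6-day levels were above the 2-day level, by 0.62 ± 0.082 and 0.57 ± 0.082 (adjusted p = 1.65e-06 and 4.02e-06).

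H3-3A and H3-3B encode the same protein, H3.3, the H3 variant deposited outside replication. H3-3B (chromosome 17, 75776434 to 75785893) was at 545, 533 and 521 normalised CPM in the controls, 365, 328 and 362 after 2 days, 438, 389.5 and 356 after 4 days and 339, 318 and 306 after 6 days. All treated libraries were below the controls, with log2 fold changes of -0.60 ± 0.080, -0.43 ± 0.080 and -0.73 ± 0.080 (adjusted p = 1.07e-06, 0.000129 and 5.73e-08).

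H3-3A (chromosome 1, 226061851 to 226072001) had 90.7, 103 and 98.2 normalised CPM in the controls, 88.3, 82.2 and 78.1 after 2 days, 109, 101 and 99.3 after 4 days and 82.6, 76.7 and 88.95 after 6 days. It moved little, and the 4-day libraries overlapped the controls. Differences from the controls were, in log2, -0.23 ± 0.083, 0.085 ± 0.083 and -0.23 ± 0.083 (adjusted p = 0.024, 0.454 and 0.0244). The 2-day call ended without control replicate 2 or 3 (adjusted p = 0.0615 and 0.0618) and without 2-day replicate 2 or 3 (0.0775 and 0.108). The 6-day call ended without control replicate 2 or 3 (adjusted p = 0.0713 and 0.0613) and without 6-day replicate 1 or 2 (0.0644 and 0.134) and with library totals alone (0.0574). Windows of 50 bases shared with another gene, chiefly the pseudogene H3P6, made up 12.9% of its transcripts, so some reads may be split. Within the counts of both genes the share of H3-3A was 19.5%, 20.03% and 17.8% after 2 days, 19.97%, 20.6% and 21.8% after 4 days and 19.6%, 19.5% and 22.5% after 6 days, against 14.3%, 16.2% and 15.9% in the controls. All treated libraries were above the controls in that share.

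MACROH2A1 encodes macroH2A1, an H2A with a large extra domain that is found on silenced chromatin (chromosome 5, 135333900 to 135399914), and it was the only variant that rose. It was at 148, 157 and 152 normalised CPM in the controls, 209, 205 and 211 after 2 days, 210.5, 193 and 199 after 4 days and 211, 206 and 208 after 6 days. Every treated library was above every control, and the 3 exposures overlapped. This gave log2 fold changes of 0.45 ± 0.070, 0.40 ± 0.070 and 0.45 ± 0.070 (adjusted p = 8.54e-06, 6.87e-05 and 1.07e-05). Its exons share up to 4968 bases with genes on the opposite strand, PITX1-AS1 among them.

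MACROH2A2, its paralog (chromosome 10, 70052796 to 70112280), had 2.84, 3.74 and 3.699 normalised CPM in the controls, 4.54, 2.81 and 4.204 after 2 days, 3.85, 2.7 and 2.8 after 4 days and 2.98, 4.09 and 2.92 after 6 days. The groups overlapped at every exposure, with log2 fold changes of 0.19 ± 0.22, -0.13 ± 0.23 and -0.037 ± 0.22 (adjusted p = 0.514, 0.702 and 0.912). The other replication-independent genes, H1-7 and H1-8, held 5 and 4 counts over all 12 libraries and were not tested.

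**Figure D3:**
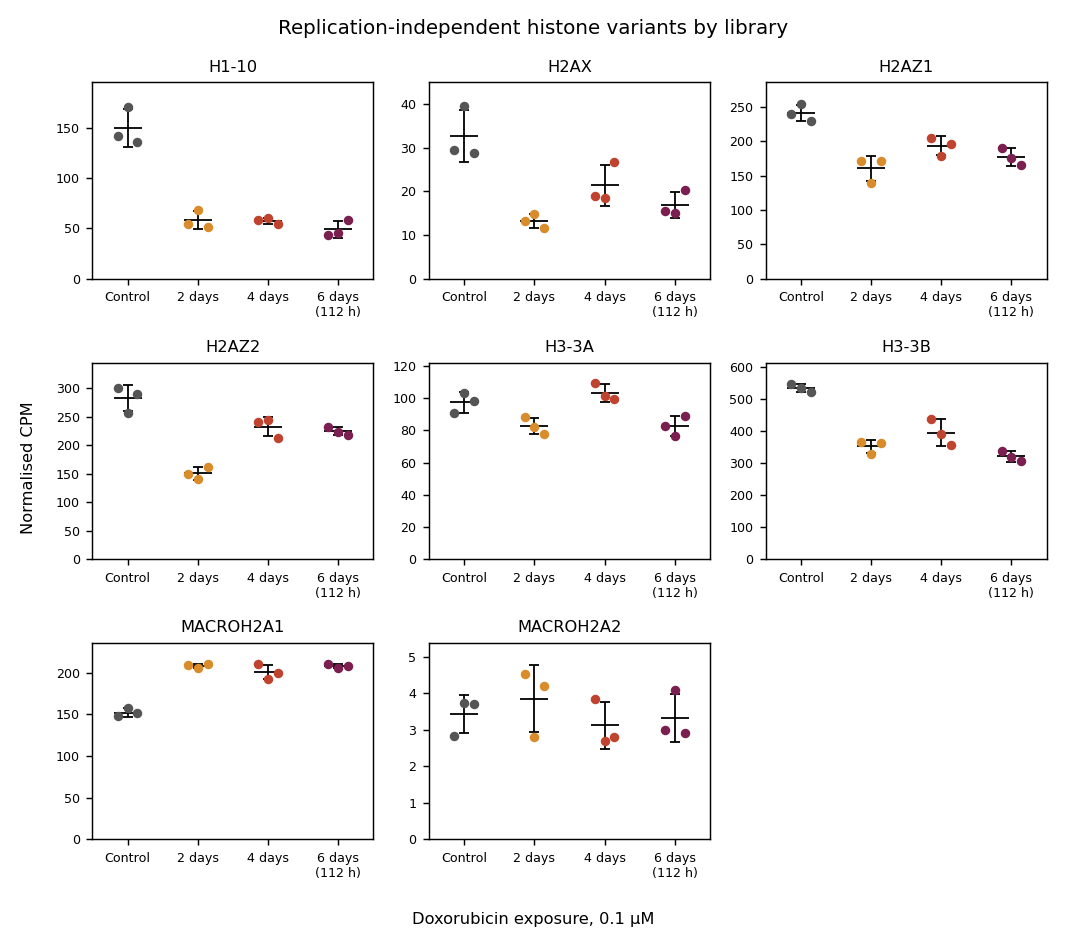
Normalised CPM (y axis, linear from 0 in each panel) of 8 of the 9 replication-independent variants that passed the filter, by exposure (x axis). Points are libraries, the bar is the mean and the whiskers are the SD (n = 3). All treated libraries lie below the controls for H1-10, H2AX, H2AZ1, H2AZ2 and H3-3B and above them for MACROH2A1, and the groups overlap for MACROH2A2.

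Both linker genes of the clusters that passed the filter fell. H1-2 (chromosome 6, 26055787 to 26056428) encodes the linker histone H1.2. It was at 14.4, 12.5 and 13.4 normalised CPM in the controls, 12.1, 12.3 and 11.1 after 2 days, 6.33, 4.74 and 9.003 after 4 days and 2.68, 4.196 and 3.89 after 6 days. The levels stepped down with exposure and no neighbouring groups overlapped, although the 2-day difference did not pass the test. The log2 fold changes were -0.19 ± 0.17, -1.003 ± 0.17 and -1.90 ± 0.19 (adjusted p = 0.37, 6.31e-05 and 9.22e-09). H1-2 was also the only replication-dependent gene that differed between 6 and 4 days, by -0.89 ± 0.20 (adjusted p = 0.00628). That call ended without 4-day replicate 3 (-0.62, adjusted p = 0.0734) or 6-day replicate 1 (-0.73, adjusted p = 0.0515).

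H1-4 (chromosome 6, 26156354 to 26157107), the gene of linker histone H1.4, had 2.33, 2.36 and 2.18 normalised CPM in the controls, 0.655, 0.753 and 0.540 after 2 days, 0.509, 0.420 and 0.604 after 4 days and 0.244, 0.382 and 0.695 after 6 days. It was low from 2 days on, and the 3 exposures overlapped. Against the controls the log2 fold changes were -1.81 ± 0.34, -2.14 ± 0.35 and -2.31 ± 0.35 (adjusted p = 0.000105, 3.12e-05 and 9.03e-06). Treated libraries held 4 to 15 counts of H1-4, against 33 to 41 in the controls, so its values carry large counting error. Summed over all 6 replication-dependent H1 genes, the level was 76.6%, 45.8% and 26.01% of the control mean after 2, 4 and 6 days.

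The 5 replication-dependent genes that rose after 2 days were H2AC11, H2BC11, H2AC6, H3C6 and H2BC21, which encode the core histones H2A, H2B and H3. H2AC11 (chromosome 6, 27133042 to 27135291) was at 1.14, 0.854 and 1.19 normalised CPM in the controls, 3.17, 3.56 and 2.82 after 2 days, 0.453, 1.14 and 1.76 after 4 days and 1.95, 1.09 and 1.297 after 6 days. The 2-day libraries were above all others, and the later libraries overlapped the controls. Fold changes on the log2 scale were 1.58 ± 0.33, 0.077 ± 0.38 and 0.43 ± 0.36 (adjusted p = 0.000352, 0.899 and 0.357).

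H2BC11 starts beside H2AC11 on the other strand (chromosome 6, 27125897 to 27132750). Its levels were 3.06, 1.97 and 3.501 normalised CPM in the controls, 4.54, 5.203 and 6.13 after 2 days, 1.58, 1.32 and 2.75 after 4 days and 1.95, 1.64 and 2.45 after 6 days. Again the 2-day libraries were above all others. On the log2 scale it differed from the controls by 0.89 ± 0.25, -0.59 ± 0.27 and -0.49 ± 0.27 (adjusted p = 0.00446, 0.0999 and 0.148). Without control replicate 2 the 4-day and 6-day values were called, at -0.79 and -0.69 (adjusted p = 0.0247 and 0.0405). The 4-day value was also called without 4-day replicate 3 (-0.96, adjusted p = 0.0152).

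H2AC6 (chromosome 6, 26124145 to 26139116), an H2A gene, had 7.32, 8.405 and 8.92 normalised CPM in the controls, 11.8, 12.2 and 11.6 after 2 days, 3.22, 4.38 and 6.31 after 4 days and 5.42, 3.98 and 3.89 after 6 days. All 2-day libraries were above the controls, and all 4-day and 6-day libraries were below them. Differences from the controls were, in log2, 0.54 ± 0.17, -0.82 ± 0.19 and -0.90 ± 0.19 (adjusted p = 0.0129, 0.00131 and 0.000404). The 2-day call ended without control replicate 1 (0.45, adjusted p = 0.0635) and with library totals alone (0.41, adjusted p = 0.0521).

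H3C6 (chromosome 6, 26224199 to 26227473), the only clustered H3 gene past the filter, had 1.48, 0.525 and 1.39 normalised CPM in the controls, 3.12, 1.16 and 3.12 after 2 days, 0.509, 1.02 and 1.04 after 4 days and 0.792, 0.818 and 0.741 after 6 days. The 2-day group overlapped the controls through its replicate 2, and its other libraries were the highest of all. This gave log2 fold changes of 1.13 ± 0.37, -0.41 ± 0.42 and -0.54 ± 0.43 (adjusted p = 0.0145, 0.49 and 0.325). The 2-day call ended without control replicate 2 (0.80, adjusted p = 0.0727), 2-day replicate 1 (0.94, 0.0821) or 2-day replicate 3 (0.95, 0.0698).

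H2BC21 (chromosome 1, 149884459 to 149886652), an H2B gene outside the main cluster, had 5.56, 6.04 and 4.23 normalised CPM in the controls, 7.16, 7.87 and 6.25 after 2 days, 4.41, 4.499 and 4.56 after 4 days and 5.06, 5.18 and 4.96 after 6 days. The 2-day libraries were the highest, and the 4-day and 6-day libraries lay inside the control range. The log2 fold changes were 0.42 ± 0.16, -0.23 ± 0.17 and -0.062 ± 0.16 (adjusted p = 0.0342, 0.297 and 0.791). Its 2-day call ended without control replicate 1 or 3 (adjusted p = 0.053 and 0.19), without 2-day replicate 1 or 2 (0.0693 and 0.108) and with library totals alone (0.13).

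H2BC5 (chromosome 6, 26158146 to 26171349), an H2B gene, was highest after 2 days, a difference from the controls that did not pass the test. It was at 3.803, 3.48 and 3.37 normalised CPM in the controls, 5.24, 5.54 and 4.62 after 2 days, 2.38, 1.26 and 3.13 after 4 days and 2.498, 0.981 and 1.44 after 6 days. No treated group overlapped the controls. Against the controls the log2 fold changes were 0.53 ± 0.25, -0.65 ± 0.28 and -1.14 ± 0.29 (adjusted p = 0.0898, 0.0704 and 0.00237). Without 4-day replicate 3 the 4-day value was called (-0.95, adjusted p = 0.0201).

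The count of 10 calls after 2 days was 6 without control replicate 1, 6 without 2-day replicate 1 and 5 without the 2 libraries that stood apart in mitochondrial share. In that last fit H2BC11 (0.56, adjusted p = 0.0926) and H3C6 (0.62, adjusted p = 0.216) no longer passed, and neither did H2BC15. H2AC11, H2AC6 and H2BC21 remained higher, and H1-4 and H2BC18 lower. The other calls lost were H2BC7 and H4C5, which could pass the filter only by being higher in the controls, so nothing is drawn from them.

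**Figure D4:**
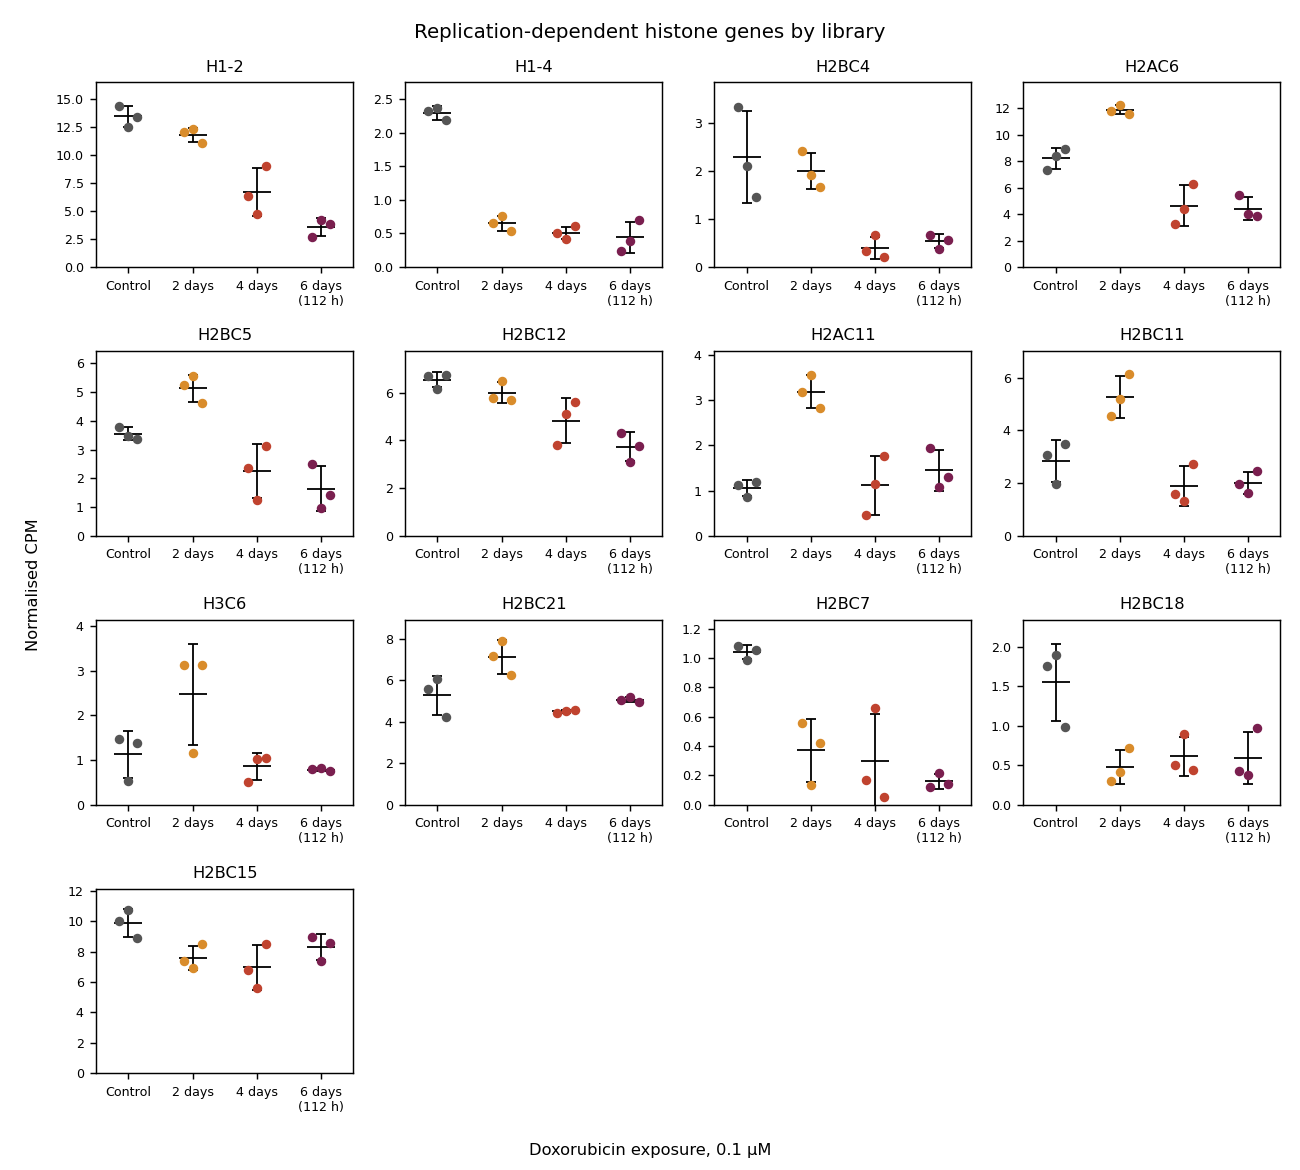
Normalised CPM (y axis, linear from 0 in each panel) of the 13 replication-dependent genes described in full, by exposure (x axis). Points are libraries, the bar is the mean and the whiskers are the SD (n = 3), cut at 0. H2AC11, H2BC11, H2AC6 and H2BC21 are highest after 2 days in all 3 libraries, H1-2 and H2BC4 are lowest after 4 or 6 days, and H1-4 and H2BC18 are low at all 3 exposures.

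Several H2B genes fell without a rise after 2 days. H2BC4 (chromosome 6, 26114873 to 26123926) was at 3.35, 2.101 and 1.45 normalised CPM in the controls, 2.42, 1.92 and 1.68 after 2 days, 0.339, 0.660 and 0.220 after 4 days and 0.670, 0.382 and 0.556 after 6 days. The 2-day libraries lay inside the control range, and the later ones were below both groups. Fold changes on the log2 scale were -0.20 ± 0.32, -2.51 ± 0.40 and -2.11 ± 0.38 (adjusted p = 0.631, 2.24e-05 and 6.91e-05).

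H2BC12 (chromosome 6, 27146418 to 27146798) had 6.699, 6.17 and 6.74 normalised CPM in the controls, 5.796, 6.503 and 5.71 after 2 days, 3.79, 5.099 and 5.599 after 4 days and 4.33, 3.11 and 3.75 after 6 days. Only the 4-day and 6-day libraries were all below the controls. On the log2 scale it differed from the controls by -0.13 ± 0.17, -0.44 ± 0.17 and -0.81 ± 0.18 (adjusted p = 0.565, 0.0497 and 0.000556). The 4-day call ended without control replicate 1, 2 or 3 (adjusted p = 0.115, 0.0512 and 0.114), without 4-day replicate 1 or 2 (0.248 and 0.0711) and with DESeq2 (0.064). Of its 50-base windows 74.1% also occur in another gene, chiefly H2BC12L, so its counts are uncertain.

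H2BC7 (chromosome 6, 26199520 to 26200715) had 1 to 11 counts in treated libraries, against 15 to 19 in the controls. Its levels were 1.08, 0.985 and 1.06 normalised CPM in the controls, 0.554, 0.137 and 0.420 after 2 days, 0.170, 0.660 and 0.0549 after 4 days and 0.122, 0.218 and 0.139 after 6 days. It passed the filter only through the controls, so these values are a description and no test against the controls is given.

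H2BC18 (chromosome 1, 149782689 to 149812373) was at 1.76, 1.904 and 0.991 normalised CPM in the controls, 0.302, 0.411 and 0.721 after 2 days, 0.509, 0.900 and 0.439 after 4 days and 0.426, 0.382 and 0.972 after 6 days. Control replicate 3 was near the highest treated library. Differences from the controls were, in log2, -1.71 ± 0.44, -1.34 ± 0.42 and -1.34 ± 0.42 (adjusted p = 0.00268, 0.015 and 0.0114). The 4-day call ended without control replicate 1 or 2 (adjusted p = 0.0583 and 0.055) or 4-day replicate 1 or 3 (0.0635 and 0.0752). The 6-day call ended without 6-day replicate 1 or 2 (0.0521 and 0.0648), and without 6-day replicate 3 its log2 fold change was -1.93 (adjusted p = 0.00367). Of its 50-base windows 13.9% occur in other genes, and it overlaps FCGR1A on the opposite strand.

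H2BC15 (chromosome 6, 27837760 to 27865798) had 9.99, 10.7 and 8.92 normalised CPM in the controls, 7.36, 6.91 and 8.47 after 2 days, 6.79, 5.58 and 8.51 after 4 days and 8.96, 7.36 and 8.57 after 6 days. The 2-day and 4-day libraries were all below the controls, and the 6-day libraries overlapped them. This gave log2 fold changes of -0.38 ± 0.15, -0.50 ± 0.16 and -0.25 ± 0.15 (adjusted p = 0.0462, 0.0133 and 0.189). The 2-day call ended without control replicate 1 or 2 (adjusted p = 0.0955 and 0.117) or 2-day replicate 1 or 2 (0.133 and 0.158), and the 4-day call without 4-day replicate 2 (0.0968). DESeq2 did not call the 2-day value either (adjusted p = 0.057). Its long annotated transcripts overlap H2AC15 by 393 bases on the opposite strand and H2AC16 by 4 bases. H2AC15 had 0 counts. Reads over the shared bases may have been dropped or given to either gene, so its counts are uncertain.

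The other 9 replication-dependent genes that passed were at or below 6.02 normalised CPM in every library. H2BC8 fell after 4 and 6 days, with log2 fold changes of -0.98 ± 0.28 and -0.93 ± 0.27 (adjusted p = 0.00718 and 0.00756), and the 4-day call ended without 4-day replicate 3 (adjusted p = 0.0574). H4C5, an H4 gene, had 4 to 10 counts in treated libraries, against 11 to 24 in the controls. H4C5, H4C3 and H2BC9 passed the filter only through the controls, so no test against the controls is given for them. H2AC8, H2AC17, H4C8, H4C9 and H4C16 did not pass the test against the controls at any exposure. H2AC8 reached the filter level in 3 libraries, all of them 4-day or 6-day ones, so it passed the filter only through them. H4C9 had 4.94, 4.73 and 4.56 normalised CPM in the controls, 5.39, 6.02 and 4.14 after 2 days, 3.56, 4.56 and 5.54 after 4 days and 4.26, 4.41 and 3.75 after 6 days, where the 2-day and 4-day libraries overlapped the controls and the 6-day libraries lay just below them (adjusted p = 0.419). Without 6-day replicate 1 the 6-day value of H2AC17 was called (-2.11, adjusted p = 0.00637), and without 2-day replicate 2 the 2-day value of H2BC8 was (-0.84, adjusted p = 0.0236).

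The longer exposures were also set against 2 days, which do not share the controls. Between 4 and 2 days 34.8% of all genes changed (16.3% higher, 18.5% lower), and of the 22 replication-dependent genes none rose and 8 fell. The groups did not overlap for 45.9% of all genes, and for 11 of the 22, with 1 above and 10 below. Those that fell were H1-2, H2AC6, H2AC11, H2BC4, H2BC5, H2BC11, H2BC21 and H3C6. H2BC4 had the largest difference, at -2.31 ± 0.41 (adjusted p = 8.09e-05), followed by H3C6 at -1.54 ± 0.38 (adjusted p = 0.00265). Of the 9 variants 4 rose (H2AX, H2AZ1, H2AZ2 and H3-3A) and none fell. H2AZ1 rose by 0.27 ± 0.087 (adjusted p = 0.0172), a call that ended without 2-day replicate 2 (0.159) or 4-day replicate 1 (0.0942).

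From 4 to 6 days little moved. Of all genes 6.78% changed (3.05% higher, 3.73% lower), and of the 22 replication-dependent genes only H1-2 did. The groups did not overlap for 27.6% of all genes, and 1 of the 22 lay above and 1 below. Of the 9 variants none rose and 3 fell, among them H3-3A and H3-3B with log2 differences of -0.32 ± 0.083 and -0.30 ± 0.080 (adjusted p = 0.0189 and 0.0237). The count of 3 was 1 without 4-day replicate 1, 1 without 6-day replicate 2 and 1 with library totals alone, and in each of these fits H3-3A and H3-3B no longer passed. Between 6 and 2 days 42.8% of all genes changed (19.8% higher, 23% lower). Without overlap between the groups were 52.8% of all genes, and 11 of the 22 lay below. Of the 22, 10 fell, among them 1 H4 gene, and none rose. Of the 9 variants 1, H2AZ2, rose and 1 fell. The count of 2 was 4 with library totals alone, which moved the median of all genes to 0.162.

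Members below the filter were described only. H3C8, H3C10 and H3C12, all H3 genes, had the most counts among the 48 untested clustered genes, with 87, 86 and 54 over the 12 libraries. Summed over the 48, the level averaged 3.15 ± 0.18 normalised CPM after 2 days, 3.78 ± 0.42 after 4 days and 3.34 ± 0.53 after 6 days, against 6.04 ± 0.56 in the controls (SD, n = 3). Treated sums reached at most 4.23, and the lowest control sum was 5.39. Of the 25 pseudogenes, H2BC20P, H2BC19P and H1-9P passed the filter. H2BC20P did not pass the test at any exposure, with 6.498 ± 1.22 normalised CPM in the controls, 6.35 ± 0.534 after 2 days, 5.88 ± 0.755 after 4 days and 5.31 ± 0.774 after 6 days. H2BC19P fell after 6 days, with a log2 fold change of -0.97 ± 0.28 (adjusted p = 0.007). H1-9P averaged 0.661 ± 0.508 normalised CPM in the controls, 0.933 ± 0.331 after 2 days, 0.416 ± 0.116 after 4 days and 0.201 ± 0.132 after 6 days. It reached the filter level in 3 libraries, all of them control or 2-day ones, so no test of it is given.

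Set per kilobase of annotated exon, the described variants spanned a wide range. In the controls H2AZ1 stood at 104.6 normalised CPM per kilobase, H1-10 at 99.3, H3-3B at 86.9, H2AZ2 at 59.5, H3-3A at 31.0, H2AX at 20.2, MACROH2A1 at 8.58 and MACROH2A2 at 1.73. Among the replication-dependent genes H1-2 led at 20.96 normalised CPM per kilobase, followed by H2BC12 at 17.2, H2AC6 at 4.93 and H2BC5 at 4.08. After 6 days H1-2 stood at 5.59 and H2AC6 at 2.66. The exon length is the union of annotated transcripts, which may not be those expressed.

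Genes that make, process and carry histones were read from 4 lists. Of 19 genes of histone transcription and 3′ processing, 3 rose and 7 fell after 2 days, none rose and 2 fell after 4 days, and 2 rose and 4 fell after 6 days. The share called was thus 52.6%, 10.5% and 31.6%, against 47.2%, 36.5% and 43.7% of all genes. SLBP, which binds the stem-loop and is needed for processing and translation of these messages, was at 169, 181 and 171 normalised CPM in the controls, 102, 83.5 and 92.2 after 2 days, 137, 125 and 127 after 4 days and 142, 127 and 128 after 6 days. All treated libraries were below the controls, and the 2-day libraries were the lowest, with log2 fold changes of -0.90 ± 0.082, -0.42 ± 0.082 and -0.39 ± 0.081 (adjusted p = 2.12e-09, 0.000226 and 0.000339). ZNF473, a zinc finger protein of the U7 processing complex, fell after 4 and 6 days (-0.39 ± 0.094 and -0.43 ± 0.094) and had -0.0065 ± 0.093 after 2 days (adjusted p = 0.0021, 0.000645 and 0.962). COIL, the scaffold of Cajal bodies, fell after 6 days, with a log2 fold change of -0.55 ± 0.096 (adjusted p = 4.63e-05). LSM1, part of a ring that takes part in histone message decay, rose after 2 days by 0.53 ± 0.12 (adjusted p = 0.000788).

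Of 31 histone chaperones and exchange factors tested, 3 rose and 18 fell after 2 days, 2 rose and 15 fell after 4 days, and 2 rose and 18 fell after 6 days, with medians of -0.33, -0.24 and -0.29 on the log2 scale. Of all genes 23.4%, 17.7% and 21.7% were lower. ANP32E, which takes H2A.Z out of chromatin, was at 336, 336 and 349 normalised CPM in the controls, 138, 113 and 145 after 2 days, 200.5, 206 and 174 after 4 days and 154, 153 and 146 after 6 days. No treated library reached the controls, with log2 fold changes of -1.36 ± 0.088, -0.82 ± 0.086 and -1.17 ± 0.087 (adjusted p = 3.59e-12, 4.47e-08 and 6e-11). HJURP, the chaperone of CENP-A, had -1.05 ± 0.078, -0.60 ± 0.077 and -1.45 ± 0.079 (adjusted p = 5.42e-11, 1.14e-06 and 1.79e-13). SSRP1, a subunit of FACT, had -0.71 ± 0.076, -0.76 ± 0.076 and -0.93 ± 0.076 (adjusted p = 2.75e-08, 1.51e-08 and 3.49e-10). MCM2, a helicase subunit that also binds H3 and H4, had -0.70 ± 0.085, -0.85 ± 0.085 and -0.50 ± 0.084 (adjusted p = 2.52e-07, 1.83e-08 and 3.17e-05).

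Of 18 histone genes outside the naming rule 15 were found and 4 were tested. CENPA, the H3 variant of centromeres, was at 40.4, 39.2 and 32.4 normalised CPM in the controls, 15.6, 13.01 and 12.1 after 2 days, 13.5, 12.5 and 16.3 after 4 days and 7.55, 7.41 and 8.61 after 6 days. It was lower in every treated library, with log2 fold changes of -1.46 ± 0.12, -1.40 ± 0.12 and -2.24 ± 0.13 (adjusted p = 7.06e-10, 2.12e-09 and 6.22e-13). H2AJ, an H2A variant reported to build up in senescent human fibroblasts, had 0.26 ± 0.17, 0.67 ± 0.16 and 0.56 ± 0.16 (adjusted p = 0.213, 0.00231 and 0.00774). H3-5 had -1.15 ± 0.47 after 6 days (adjusted p = 0.0495), a call that ended without control replicate 1 or 3 (0.0765 and 0.232) or 6-day replicate 1 or 3 (0.173 and 0.118). H3-7 did not pass the test at any exposure.

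Of 10 S phase genes tested, 1 rose and 8 fell after 2 days, 2 rose and 4 fell after 4 days, and 2 rose and 3 fell after 6 days. That was 90%, 60% and 50% called, against 47.2%, 36.5% and 43.7% of all genes. Their summed level was 1750 to 1833 normalised CPM after 2 days, 2154 to 2272 after 4 days and 2035 to 2129 after 6 days, against 2832 to 2892 in the controls. CCNE2, a cyclin of S phase entry, had -2.06 ± 0.16, -0.22 ± 0.14 and 0.017 ± 0.14 (adjusted p = 1.39e-09, 0.262 and 0.938), and its 4-day value was called without control replicate 2 (adjusted p = 0.047). RRM2, a subunit of ribonucleotide reductase, had -1.12 ± 0.075, -0.089 ± 0.074 and -0.15 ± 0.074 (adjusted p = 7.91e-12, 0.38 and 0.111). MCM6, a subunit of the replicative helicase, fell at every exposure, with -1.27 ± 0.090, -1.15 ± 0.090 and -0.78 ± 0.089 (adjusted p = 2.24e-11, 2.37e-10 and 1.04e-07). MKI67, a marker of cycling cells, fell likewise, with -1.13 ± 0.083, -0.94 ± 0.083 and -1.51 ± 0.084 (adjusted p = 4.3e-11, 1.64e-09 and 2.05e-13). The genes that rose were named after their values were seen. PCNA, the sliding clamp of DNA polymerase, rose at every exposure, with 0.56 ± 0.082, 0.33 ± 0.082 and 0.47 ± 0.082 (adjusted p = 4.27e-06, 0.00287 and 4.58e-05). CCNE1, a cyclin of S phase entry, fell after 2 days and rose after 4 and 6 days, with -0.85 ± 0.30, 0.78 ± 0.26 and 0.96 ± 0.25 (adjusted p = 0.0222, 0.0196 and 0.00314). Its 2-day call ended without control replicate 2 or 2-day replicate 2 (adjusted p = 0.142 and 0.125) and without both libraries apart in mitochondrial share (0.0759), and its 4-day call without control replicate 1 or 3 (0.104 and 0.0769) or 4-day replicate 1 (0.103). The S phase sum was below the controls at every exposure and lowest after 2 days. The replication-dependent sum was at 100.7%, 63.5% and 58.1% of the control after 2, 4 and 6 days. Its 2-day value held H1 at 76.6% and H2A at 146.5%. The part of S phase in the members' changes was not tested.

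Of 10 fibroblast markers tested, 8 rose and 1 fell after 2 days, 3 rose and 5 fell after 4 days, and 2 rose and 6 fell after 6 days. That was 90%, 80% and 80% called, against 47.2%, 36.5% and 43.7% of all genes. Their summed level was 27068 to 28396 normalised CPM after 2 days, 24924 to 26718 after 4 days and 22161 to 23022 after 6 days, against 17155 to 18022 in the controls. FN1 and VIM held most of that sum, with a mean of 19097.6 after 2 days, 20262.8 after 4 days and 17907.4 after 6 days, against 11752.5 in the controls. The other 8 markers summed to 8557.6, 5504.9 and 4698.7, against 5890.1 in the controls. The 15 cardiomyocyte markers summed to 24.7 to 27.1 normalised CPM after 6 days, against 15.5 to 20.7 in the controls. Of the 5 tested 2 rose and 1 fell after 6 days, or 60% called, against 43.7% of all genes. ACTN2, a protein of the sarcomere's Z-disc, averaged 0.983 ± 0.152 normalised CPM after 2 days, 0.455 ± 0.145 after 4 days and 0.767 ± 0.158 after 6 days, against 0.0658 ± 0.0657 in the controls (SD, n = 3). It passed the filter only through treated libraries, so it could pass only by being higher there. The 5 tested include ACTN2, and nothing is drawn from their count. The part of either list in the members' changes was not tested.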

How the data were processed

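RNA sequencing counts for 12 libraries (3 a group) were deposited by the authors as raw whole-number counts per gene. Per the labels' protocols, libraries came from total RNA with an NEBNext Ultra kit. Per the submitters' processing notes, fastp 0.23.2, Trimmomatic 0.38, STAR 2.7.8, HTSeq 0.13.5 and GRCh38.p13 were used; strand setting, treatment of multi-mapping reads and poly(A) selection are not given in the sources used here. Reads shared by near-identical histone genes may have been dropped or split.

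Genes were filtered with filterByExpr (minimum count 10, minimum total 15), leaving 17320 of 60607. TMM scaling and edgeR 4.0.16 quasi-likelihood tests (R 4.3.3) used 1 fit of 12 libraries. P-values were Benjamini-Hochberg adjusted over all 17320 genes and called under 0.05. SE is the log2 fold change over the square root of F. Normalised CPM uses TMM-scaled library sizes. The procedure was tested on simulated data.

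Symbols came from an Ensembl ID table for 108 members and from older names for 2. Variants past the filter and the 12 replication-dependent genes with the smallest p for any difference, plus the 3 with the highest mean, were described in full, except 1 variant that is not reported here and counts only in class totals. Members and lists were chosen with earlier results of these data known. Alternatives were RLE size factors, library totals, no filter, 1 CPM in 3 libraries, DESeq2 1.42.0, a replicate block, fits of only 2 groups and single libraries left out in turn. No pair of libraries within a group agreed within counting noise (lowest chi-square per gene 4.11).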

Additional observations from a re-analysis of the deposited data

Results flagged for a closer look

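The members below differed between exposures by the direct contrast of those exposures (edgeR quasi-likelihood test, Benjamini-Hochberg adjusted p under 0.05 over 17320 genes), with differences on the log2 scale. The later group comes on top of each difference, and the contrasts with a shared exposure share its 3 libraries.

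Among the replication-independent variants, H2AZ2 was higher after 4 days than after 2 days by 0.62 and after 6 days than after 2 days by 0.57. H2AX was higher after 4 than after 2 days by 0.70, H3-3A by 0.32 and H2AZ1 by 0.27. The difference of 6 against 4 days was -0.32 in H3-3A and -0.30 in H3-3B.

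Among the replication-dependent genes the differences were all below 0. H1-2 differed by -0.81 between 4 and 2 days, -0.89 between 6 and 4 days and -1.71 between 6 and 2 days. Between 4 and 2 days the values were -1.35 in H2AC6, -2.31 in H2BC4, -1.47 in H2BC11, -1.17 in H2BC5, -1.50 in H2AC11, -1.54 in H3C6 and -0.66 in H2BC21. Between 6 and 2 days they were -1.43 in H2AC6, -1.91 in H2BC4, -1.38 in H2BC11, -1.67 in H2BC5, -1.15 in H2AC11, -1.67 in H3C6, -0.69 in H2BC12 and -0.48 in H2BC21.

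H2BC21 between 6 and 2 days no longer passed without 2-day replicate 2 (adjusted p = 0.0693) or with library totals alone (0.1). H3-3A between 6 and 4 days no longer passed without 4-day replicate 1 (0.118), 6-day replicate 1 (0.0737) or 6-day replicate 2 (0.131). H3-3B between 6 and 4 days no longer passed without 4-day replicate 1 (adjusted p = 0.19) or 2 (0.055) or 6-day replicate 2 (0.0976) or 3 (0.1).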

How the results depend on the processing

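Among the recomputed log2 fold changes of named genes, 3008 kept their direction and their side of the threshold, 38 came to pass the test and 122 no longer passed. None of these reversed in any setting run. Leaving out 1 library at a time gave 6 to 8 replication-dependent genes changed after 2 days (10 in the reported fit) and 0 to 1 between 6 and 4 days (1 in the reported fit), and 1 to 3 variants between 6 and 4 days (3 in the reported fit). Without both libraries that stood apart in mitochondrial share, a setting chosen after seeing the data, 5 replication-dependent genes changed after 2 days. Library totals alone gave 1 variant changed between 6 and 4 days and 4 between 6 and 2 days (2 in the reported fit). As a percent of control, the replication-dependent sum after 2 days (100.7%) was 92.4% with library totals alone and 104.7% over members past the filter alone, and after 6 days (58.1%) it was 64.6% without the member with the highest mean. The variant sum after 2 days (63.7%) was 58.5% with library totals alone and 62.7% to 64.6% on leaving out 1 library. The cause of these shifts was not tested. With the replicate number as a block, the replication-dependent counts against the controls were 10, 10 and 11 and the variant counts 8, 7 and 8, the same totals as without it. The members after 4 days differed. With the block H2BC12 no longer passed (adjusted p = 0.0644), and H2BC11 came to pass narrowly (-0.61, adjusted p rounded to 0.05). Same-numbered libraries had correlations of -0.171 to 0.0963, so the numbers were not taken as pairs. The replication-dependent counts against the controls in this section include genes that passed the filter only through the controls. Low counts left 48 of the 70 clustered genes untested.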
